A study of Drosophila melanogaster and Drosophila persimilis and Drosophila pseudoobscura with 5 samples.

Results

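The cytochrome P450 genes of the cross-species table were taken as every row whose gene symbol begins with Cyp followed by a digit. There were 40 such rows among the 8180 genes of the table, and all were kept, silent rows included. The RNA was extracted from Johnston's organ, which senses sound within the antenna, of adult flies kept at 25 degrees Celsius on standard food. D. pseudoobscura and D. persimilis belong to the obscura species group, and D. melanogaster, D. simulans and D. yakuba to the melanogaster species group. Each species was represented by 1 library. The sources used here name no treatment or engineered genotype, and they do not give sex, strain or the number of flies pooled. With 1 library per species the differences have no replicate check and carry no p-value, and each describes the libraries named.

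Cytochrome P450 enzymes are haem monooxygenases that insert an oxygen atom into small, mostly fat-soluble molecules. Those of the endoplasmic reticulum draw electrons from P450 reductase and cytochrome b5, and those of the mitochondrion from ferredoxin and its reductase. In insects a few members make or degrade hormones or cuticular hydrocarbons, while the large CYP3 and CYP4 clans hold most of the enzymes known for the breakdown of plant toxins, insecticides and odorants, which is their best known role in the antenna.

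Levels are given as signal, the authors' length-corrected value scaled to the same upper quartile in each library, multiplied here by 1 common factor so that the library totals average 1000000. The libraries held 12908479 reads counted on genes in D. pseudoobscura, 9236301 in D. persimilis, 22391819 in D. melanogaster, 7580214 in D. simulans and 13916387 in D. yakuba. Reads per P450 gene were matched in D. melanogaster alone, so the counting error behind a signal in the other libraries is unknown. Markers of other tissues differed between the libraries. The 4 fat body markers of the table, of 5 listed, summed to 1119 to 2249 in the obscura group and 6471 to 21548 in the melanogaster group, with Fbp1 at 0 in both obscura group libraries. Yp1 and Yp2 made up most of each of these sums, and Lsp2 overlapped between the groups. The 4 eye markers summed to 17.2 and 117 in the obscura group, against 104 to 7333, the highest being D. simulans, with trp and Arr2 at 0 in D. pseudoobscura. The 5 olfactory markers of 6 summed to 50320 and 26657, against 7638 to 16592. Obp28a, Obp83a and Obp83b made up most of each sum. Orco was at 376 and 348 in the obscura group, against 88.0, 77.3 and 678 in D. melanogaster, D. simulans and D. yakuba. Ir25a was at 18.9 and 16.8, against 7.72, 0.585 and 37.5 in the same order. The 5 markers of chordotonal neurons in the table, of 8 listed, summed to 39.3 and 14.4 in the obscura group and 33.7 to 64.0 in the melanogaster group, with Rootletin at 0 in D. pseudoobscura and nan at 0.0910 in D. simulans. The remaining lists summed, in the order obscura group and melanogaster group, to 33.2 to 149 and 19.3 to 113 for 2 of 4 chordotonal support markers, 3946 to 21414 and 1381 to 23866 for 2 of 3 muscle markers, 4.99 to 119 and 7.85 to 1639 for 2 of 3 gut markers, and 5.72 to 8.49 and 10.97 to 31.8 for 1 of 3 haemocyte markers. The single oenocyte marker of 3, bond, was at 0.225 and 5.07, against 3.32 to 63.8. The 3 Malpighian tubule markers summed to 132 and 131, against 27.1 to 269, and of them Uro was at 0 in all libraries and Vha16-5 in all but D. melanogaster. The part of other tissues in the P450 differences was not tested. In such bulk samples fewer cells of a type and less RNA per cell cannot be told apart.

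Between 24 and 27 of the P450 genes were expressed in each library. At a signal of 5 or more were 25 of the 40 in D. pseudoobscura, 24 in D. persimilis, 26 in D. melanogaster, 27 in D. simulans and 25 in D. yakuba. The highest of these shares, 67.5%, stands beside 54.8% of all 8180 genes in D. simulans, and over the 5 libraries 54.1% to 60.1% of all genes reached this level. Listed at 0 were 9, 7, 5, 10 and 7 members in the same order of species, or 12.5% to 25.0%, beside 17.1% to 28.4% of all genes, with the fewest zeros in the deepest library and the most in the shallowest both for P450 genes and for all genes. Of the 40 members 15 reached 5 in every library, 32 in at least 1 library and 8 in none.

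**Figure D1:**
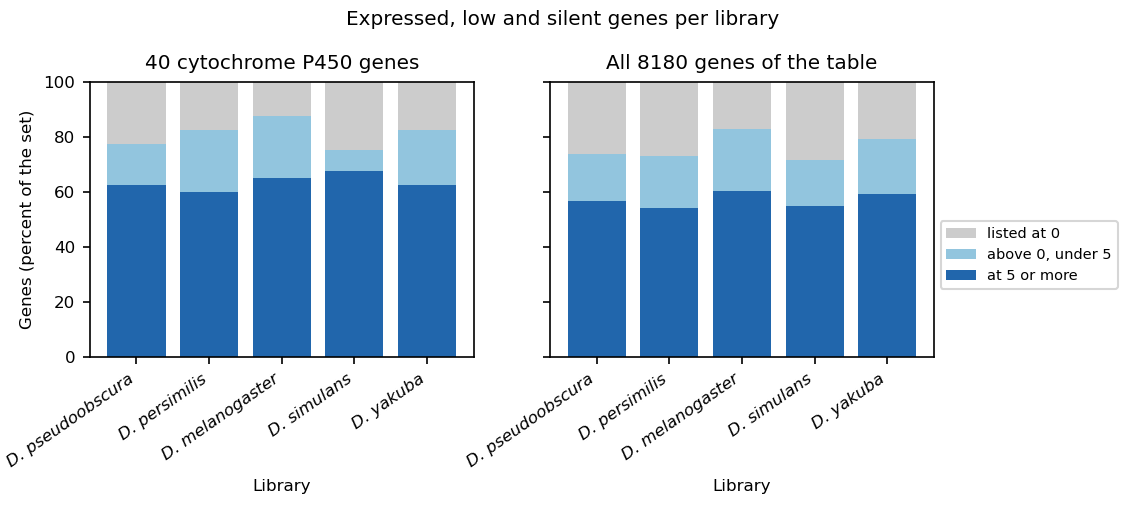
Stacked bars give, for each library, the percent of genes at a signal of 5 or more, above 0 but under 5, and listed at 0, for the 40 P450 genes (left) and for all 8180 genes (right). The expressed part of the P450 bars holds 24 to 27 of the 40 genes, and that of all genes lies between 54.1% and 60.1%.

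Silent or nearly silent members came from 3 clans. Cyp4c3, Cyp4ad1 and Cyp316a1, all of the CYP4 clan, were at 0 in all 5 libraries, and no D. melanogaster read was counted on any of them, which allows up to 3 reads each. Both CYP2 clan members were nearly silent. Cyp303a1, which is needed for the development of external mechanosensory bristles in D. melanogaster, was at 3.33 in D. yakuba, at 0.0365 in D. melanogaster (1 read) and at 0 elsewhere. Cyp304a1 was at 0.0381 in D. melanogaster (1 read) and at 0 in the other 4 libraries. Cyp4aa1 was above 0 in D. melanogaster alone (0.250, 8 reads), and Cyp310a1 and Cyp313b1 stayed at or below 1.27 and 2.18 in every library. The steroid hormone P450 genes that the table lists under other names, and which are thus outside the 40, stayed under 5 in all libraries but 1. Of the 7 listed ecdysteroid genes 4 were in the table, among which dib was at 0 throughout, phm reached 3.60 in D. persimilis, sad 1.51 in D. melanogaster and shd 8.36 in D. yakuba.

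In each library a few genes carried much of the P450 signal, and the 3 leading ones were of the CYP3 clan except in D. yakuba, where Cyp4g15 of the CYP4 clan came second at 183. Cyp6w1 (2R:6173684-6176195 in BDGP6), for which RefSeq records the synonym AntP450, had the highest mean signal, 533, and was the leading member in 4 libraries. Its signal was 775 in D. pseudoobscura, 744 in D. persimilis, 727 in D. melanogaster, 418 in D. simulans and 0.210 in D. yakuba. These 4 high values stood above the signals of 95.3% to 97.9% of the genes of their library, and the D. yakuba value above 23.7%. Cyp6w1 made up 20.9%, 25.6%, 25.5% and 26.7% of the summed P450 signal in the 4 libraries where it was high. In D. melanogaster its lead depended on the gene length used. Per kilobase of BDGP6 exon, Cyp6d5 had 7693 reads there and Cyp6w1 7564. Cyp9f2 (3R:12403340-12406028) came second by its mean, 375, and was the leading member in D. yakuba with 31.0% of the P450 signal there. It was at 606 in D. pseudoobscura, 271 in D. persimilis, 394 in D. melanogaster, 231 in D. simulans and 373 in D. yakuba, and these values stood above 92.6% to 97.1% of the genes of their library.

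The P450 genes together took 0.396% of the table's signal in D. pseudoobscura, 0.231% in D. persimilis, 0.414% in D. melanogaster, 0.122% in D. simulans and 0.145% in D. yakuba. The 3 leading members of each library held 46.2% to 57.7% of its P450 signal. The other members among the 10 with the highest means were Cyp6t3 (187), Cyp308a1 (180.0), Cyp6d5 (168), Cyp28c1 (139.5), Cyp28a5 (127), Cyp6a19 (96.9), Cyp4g15 (94.5) and Cyp4d2 (65.5). Of these 10, Cyp4g15 and Cyp4d2 belong to the CYP4 clan and the rest to the CYP3 clan.

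**Figure D2:**
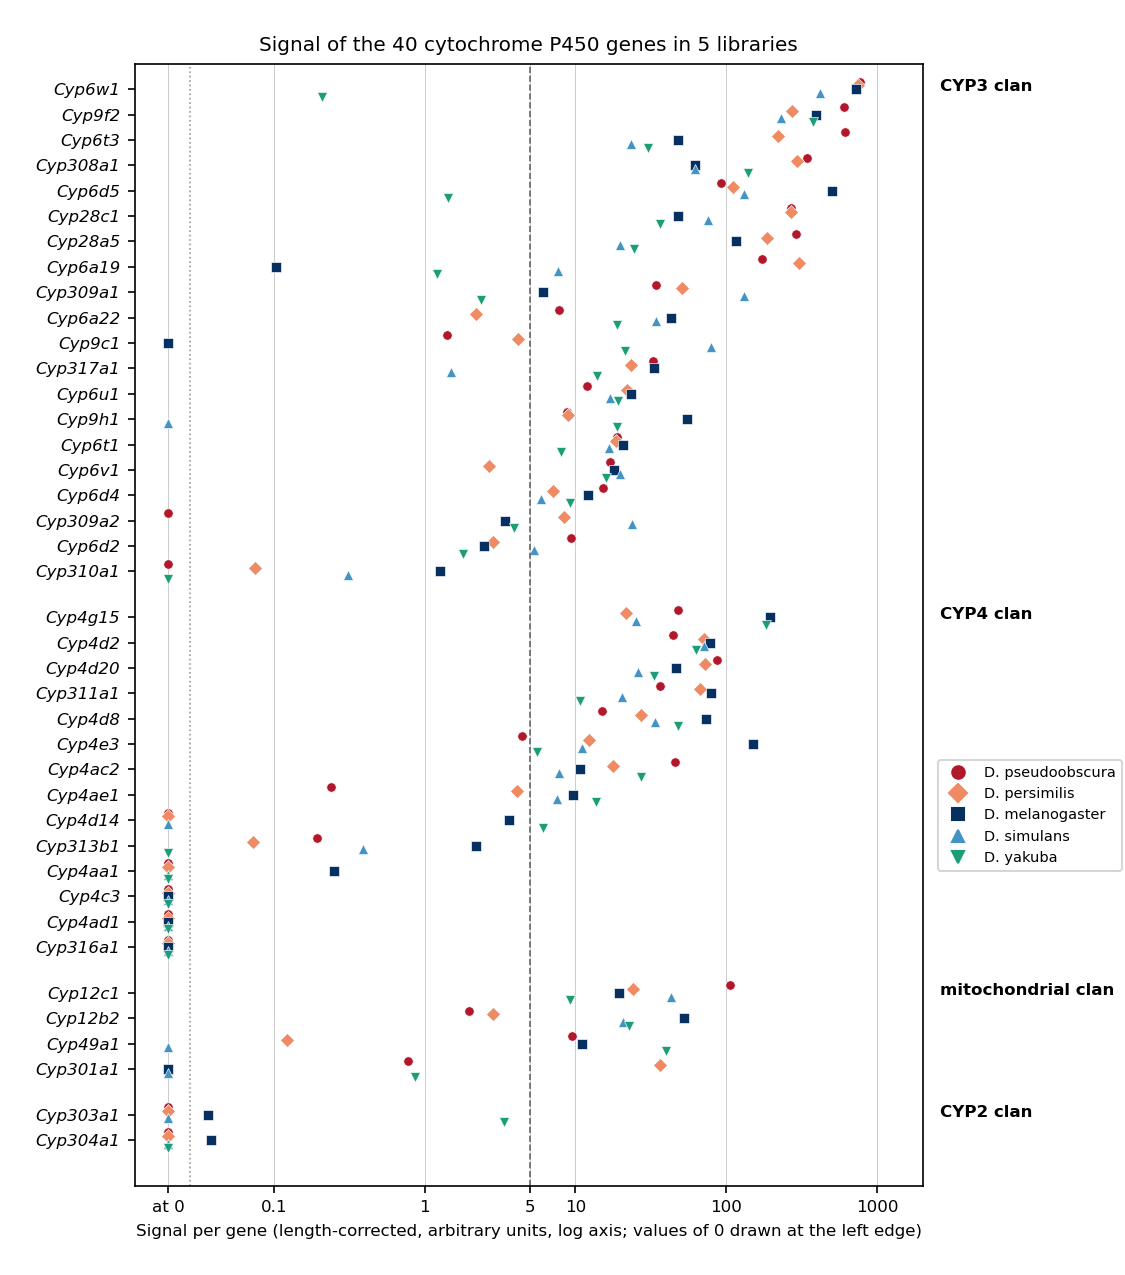
Each row is 1 of the 40 P450 genes, grouped by clan, and each point its signal in 1 library on a log axis, with values of 0 drawn at the left edge and a dashed line at 5. Cyp6w1 lies between 418 and 775 in 4 libraries and at 0.210 in D. yakuba, and 3 CYP4 clan genes are at 0 in all libraries.

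The clans differed in their weight. The 20 CYP3 clan members (families Cyp6, Cyp9, Cyp28, Cyp308, Cyp309, Cyp310 and Cyp317) summed to a signal of 3317 in D. pseudoobscura, 2551 in D. persimilis, 2117 in D. melanogaster, 1303 in D. simulans and 739.7 in D. yakuba. The 14 CYP4 clan members summed to 281 and 293 in the obscura group libraries, against 648, 203 and 390.2 in D. melanogaster, D. simulans and D. yakuba. The 4 members of the mitochondrial clan summed to 119 and 63.4, against 82.9, 64.0 and 72.7. The CYP3 clan thus held most of the P450 signal in every library.

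Differences between the species groups were then examined for the 30 members with a mean signal of at least 5 over the 5 libraries, of which 25 were above 0 in all libraries. The call "higher" required both obscura group libraries to lie at least 2-fold above each of the 3 melanogaster group libraries on the log2(signal + 1) scale, and "lower" required the reverse. By this rule 4 of the 30 members were higher in the obscura group, where 4.68% of all 5089 compared genes met the rule, and 2 were lower, where 5.86% of all compared genes did. In either direction 10.5% of all compared genes met the rule. The 4 higher members are 13.3% of those compared and the 2 lower ones 6.67%, the second share being near that of all genes. Both lower members, Cyp12b2 and Cyp6a22, and the higher member Cyp6a19 reached the minimum mean only through the group where they were high. All 4 higher members belong to the CYP3 clan, as do 18 of the 30 compared members and 1 of the 2 lower ones.

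Cyp6a19 (2R:14877786-14879752) had the widest gap. Its signal was 171 in D. pseudoobscura and 304.2 in D. persimilis, against 0.103 in D. melanogaster, 7.66 in D. simulans and 1.21 in D. yakuba. The lower obscura group value was 22.4 times the highest value of the melanogaster group, and the difference of group means was 6.37 on the log2 scale. In D. melanogaster 3 reads were counted on it (95% exact Poisson interval 0.619 to 8.77), and 20.8% of its exon bases overlap Cyp6a9, which lies on the opposite strand and had 1541 reads.

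Cyp6t3 (2R:12190682-12192436), which in D. melanogaster larvae takes part in ecdysone synthesis in the prothoracic gland, was at 610.3 in D. pseudoobscura and 221 in D. persimilis. It was at 47.8 in D. melanogaster, 23.2 in D. simulans and 30.3 in D. yakuba, a difference of 3.47 on the log2 scale with a gap of 4.63 times. Cyp28c1 (X:11839608-11841503) had 269.2 in each obscura group library, against 47.5, 75.1 and 36.6 in D. melanogaster, D. simulans and D. yakuba. The obscura group values of Cyp28c1 nearly coincided, and the difference was 2.38 with a gap of 3.58 times. Cyp308a1 (X:18709865-18711638) had 344 and 294, against 61.8, 61.7 and 139 in the same order, a difference of 1.96. Its gap of 2.11 times was the closest to the threshold among the 4, and Cyp308a1 no longer met the rule after scaling all libraries to equal totals. How gene copies were paired between species is a step that the sources used here do not give, for these genes or for others of the family.

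The lower members were Cyp12b2, a mitochondrial clan enzyme, and Cyp6a22, of the CYP3 clan. Cyp12b2 (2R:18754995-18757083) was at 1.98 in D. pseudoobscura and 2.86 in D. persimilis, against 52.6 in D. melanogaster, 20.8 in D. simulans and 22.7 in D. yakuba. Its difference was -3.16 on the log2 scale and its gap 7.27 times. Cyp6a22 (2R:14871366-14873705) was at 7.80 and 2.20, against 42.9, 34.1 and 18.9, a difference of -2.56 with a gap of 2.43 times. Cyp6a22 no longer met the rule with a pseudocount of 5. Among the tissue markers, Yp1 and Yp2 of the fat body, ninaE and trp of the eye and Rootletin of chordotonal neurons were lower by the same rule. Of all compared genes 5.86% were lower. The olfactory marker Obp28a was higher, where 4.68% of all compared genes were. The eye markers Arr1 and Arr2 and the chordotonal markers nan, Dhc93AB and nompB met neither rule. Nor did the olfactory markers Orco, Obp83a, Obp83b and Ir25a. Arr1 was at 3.71 and 50.7 in the obscura group, against 6.88, 470 and 24.4 in D. melanogaster, D. simulans and D. yakuba. Of the other fat body markers Fbp1 was at 0 in the obscura group. Lsp2 was at 35.03 and 24.6 there, against 494 in D. melanogaster, 11.1 in D. simulans and 0.0888 in D. yakuba. Any link of these markers to the P450 genes was not tested.

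With no minimum size of the gap, the groups did not overlap for 7 members that were above in the obscura group, where 16.7% of all compared genes were, and for 4 that were below, where 19.9% were. The further 3 above were Cyp28a5, Cyp4d20 and Cyp6w1, with gaps of 0.67, 0.62 and 0.03 on the log2 scale. Cyp28a5, whose family includes enzymes induced by cactus alkaloids in the desert species D. mettleri, was at 290.3 and 185 in the obscura group, against 116, 19.9 and 24.3 in D. melanogaster, D. simulans and D. yakuba. The further 2 below were Cyp4ae1 and Cyp4d8, with gaps of 0.76 and 0.30. For the other 19 members the groups overlapped. The median difference over the 30 members was 0.35 on the log2 scale, beside -0.06 over all compared genes, with 17 members above 0 and 13 below. It was 0.65 over the 18 compared CYP3 clan members, -0.79 over the 8 of the CYP4 clan and 0.06 over the 4 of the mitochondrial clan.

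**Figure D3:**
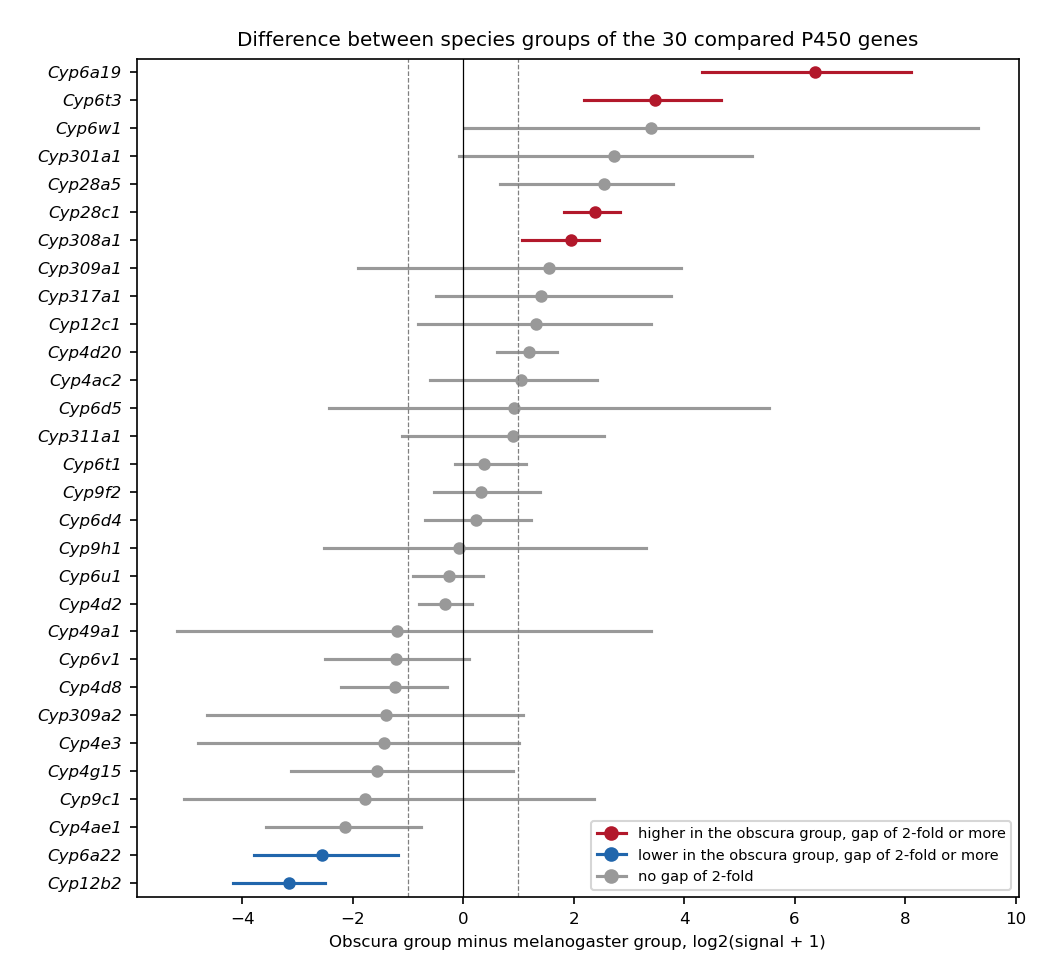
For each of the 30 compared P450 genes the point is the mean log2(signal + 1) of the 2 obscura group libraries minus that of the 3 melanogaster group libraries, and the bar spans the differences between any obscura group library and any melanogaster group library. Cyp6a19, Cyp6t3, Cyp28c1 and Cyp308a1 (red) lie above the dashed line at 1 with their whole bar, and Cyp6a22 and Cyp12b2 (blue) below the line at -1.

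The calls depended on which libraries were compared. Without D. persimilis 6 members were higher, Cyp12c1 and Cyp28a5 in addition, and 5 were lower, with Cyp309a2, Cyp4ae1 and Cyp4d8 added. Without D. simulans 5 were higher, with Cyp309a1 added, and 5 lower, with Cyp4ae1, Cyp4g15 and Cyp9h1 added. Without D. melanogaster Cyp28a5 and Cyp4d20 joined the higher and Cyp9c1 the lower, and without D. pseudoobscura Cyp301a1 and Cyp6v1 did in the same order. With fewer libraries the rule asks for less, so that leaving one out can add calls but not take them away by the gap. The share of all genes that met the rule also grew with a library left out, to between 7.19% and 9.44% higher and between 7.83% and 14.7% lower.

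Other members stood apart in a single species. In 9 of the 30 members 1 library lay at least 4-fold above or below all the other 4 on the log2(signal + 1) scale, where 16.0% of all compared genes did. No member was highest by this margin in D. pseudoobscura, D. simulans or D. yakuba, where 0.491%, 1.61% and 0.354% of all compared genes were, and none was lowest by it in D. melanogaster, where 2.69% were. With a pseudocount of 5 there were 4 such members, where 6.15% of all compared genes stood apart.

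In D. yakuba a pair of CYP3 clan genes that were abundant elsewhere was near 0. Besides Cyp6w1, Cyp6d5 (3R:14029228-14031483), a gene induced by caffeine in D. melanogaster, was at 1.42 in D. yakuba, against 92.9 in D. pseudoobscura, 111 in D. persimilis, 504 in D. melanogaster and 132 in D. simulans. These were 2 of the 30 members, where 0.884% of all compared genes were at least 4-fold below all others in D. yakuba. The summed P450 signal was 1206 in D. yakuba, against 3716 in D. pseudoobscura, 2908 in D. persimilis, 2847 in D. melanogaster and 1570.2 in D. simulans. As a share of the table's signal it was lower in D. simulans (0.122%) than in D. yakuba (0.145%), so which of these libraries was lowest turned with the scaling.

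In D. melanogaster Cyp4e3 (2L:9747839-9750071), which affects permethrin tolerance in the Malpighian tubules of that species, was at 149, against 4.40 in D. pseudoobscura, 12.3 in D. persimilis, 11.1 in D. simulans and 5.59 in D. yakuba. The D. melanogaster signal of Cyp4e3 was 12.2 times the next highest. It rested on 4123 reads (3998 to 4251), and it was 1 of the 30 members, where 0.570% of all compared genes were at least 4-fold above all others in that library. In D. persimilis Cyp301a1 (2R:12566185-12569061), a mitochondrial clan enzyme needed for the adult cuticle in D. melanogaster, was at 36.3, against 0.777 in D. pseudoobscura, 0.868 in D. yakuba and 0 in D. melanogaster and D. simulans. It was the only member high in D. persimilis alone, where 1.06% of all compared genes were, and no D. melanogaster read was counted on it.

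The other members that stood apart did so downward. Cyp6v1 was at 2.65 in D. persimilis, against 15.9 to 19.7 in the other 4 libraries (1 member, where 2.67% of all genes met the rule in D. persimilis). Cyp317a1 was at 1.48 in D. simulans, against 13.9 to 33.2, and Cyp9h1 was listed at 0 in D. simulans, against 8.80 to 54.9 (2 members, where 3.64% of all genes met the rule). Kank, on the opposite strand, overlaps 32.6% of the exon bases of Cyp317a1. In D. melanogaster Kank had 2846 reads and Cyp317a1 790. Cyp4ae1 was at 0.240 in D. pseudoobscura, against 4.07 to 13.6, and Cyp309a2 was listed at 0 in D. pseudoobscura, against 3.42 to 23.8 (2 members, where 2.53% of all genes met the rule). An antisense gene, asRNA:CR44690, covers 88.25% of the exon bases of Cyp4ae1 but had no entry in the D. melanogaster counts. Whether a 0 in this table stands for no reads or for no matched gene was not tested outside D. melanogaster, where all 5 members at 0 had no read.

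Members at 0 in some libraries but not in others also included Cyp9c1, Cyp49a1 and Cyp4d14, with mean signals of 21.2, 12.1 and 1.95. Cyp9c1 was listed at 0 in D. melanogaster, with 1.41 in D. pseudoobscura, 4.19 in D. persimilis, 79.0 in D. simulans and 21.3 in D. yakuba. An antisense gene, asRNA:CR43787, covers 98.2% of the exon bases of Cyp9c1, and the D. melanogaster counts held 2 reads for it and none for Cyp9c1. Without the strand setting, reads from the 2 genes cannot be told apart. Cyp49a1 was listed at 0 in D. simulans, with 9.52 in D. pseudoobscura, 0.122 in D. persimilis, 10.97 in D. melanogaster and 39.9 in D. yakuba. Cyp4d14 was above 0 in D. melanogaster (3.63) and D. yakuba (6.12) alone, and 97.2% of its exon bases are overlapped on the opposite strand by ND-B14.5A, which had 5550 reads, and asRNA:CR45479, which had no entry in the counts.

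The remaining members varied with neither rule met. Cyp309a1 was highest in D. simulans, with 34.4 and 50.9 in the obscura group, against 6.08, 131 and 2.37 in D. melanogaster, D. simulans and D. yakuba. Cyp12c1, of the mitochondrial clan, was highest in D. pseudoobscura, with 107 there and 24.1 in D. persimilis, against 19.3, 43.3 and 9.20. Cyp311a1, which shapes the microvilli of midgut cells in D. melanogaster, was at 36.1 and 67.0, against 78.9, 20.2 and 10.7. Its D. melanogaster value was the highest and its D. yakuba value the lowest. Cyp4d20 was at 86.7 and 72.1, against 46.6, 26.0 and 33.1, and Cyp4ac2 at 45.9 and 17.7, against 10.8, 7.73 and 27.2. Cyp6d2, which affects camptothecin resistance in D. melanogaster, was at 9.38 and 2.83, against 2.46, 5.34 and 1.78, below the minimum mean.

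Some of the family was even across species. The 5 members above 0 in all libraries with the smallest range were Cyp4d2, Cyp6u1, Cyp6d4, Cyp6t1 and Cyp9f2, with a ratio of highest to lowest signal of 1.76, 1.96, 2.56, 2.61 and 2.63. Cyp4d2 was at 44.2 in D. pseudoobscura, 70.6 in D. persimilis, 78.0 in D. melanogaster, 71.6 in D. simulans and 63.4 in D. yakuba. Cyp6u1 was at 11.9, 22.0, 23.3, 16.9 and 19.3 in the same order. An antisense gene covers 98.7% of the exon bases of Cyp4d2 in BDGP6 but had no entry in the D. melanogaster counts.

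Compared pair by pair, libraries differed more often in P450 genes than in genes at large. Over the 10 pairs of libraries, 110 of 300 member comparisons were at least 4-fold apart, or 36.7%, where 21.9% of all comparisons were. The share of members exceeded that of all compared genes in each of the 10 pairs. It was largest between D. persimilis and D. melanogaster (15 of 30 members, where 27.5% of all genes were apart) and between D. persimilis and D. yakuba (15 members, where 25.2% were). It was smallest between D. pseudoobscura and D. persimilis (6 members, where 15.2% were apart) and between D. melanogaster and D. yakuba (6 members, where 11.6% were). D. melanogaster and D. simulans differed in 10 members, where 22.4% of all genes were apart, and D. simulans and D. yakuba in 9, where 20.1% were. D. pseudoobscura differed from D. melanogaster in 14 members, from D. simulans in 12 and from D. yakuba in 12, where 22.2%, 27.5% and 21.3% of all genes were apart. D. persimilis differed from D. simulans in 11 members, where 26.2% were. The range over the 5 libraries was at least 4-fold in 24 of the 30 members, where 61.7% of all genes had such a range, and at least 16-fold in 12, where 19.0% had. The median of this range was 3.67 on the log2 scale over the members and 2.39 over all compared genes. The pairs share libraries, members of 1 cluster share ancestry, and the median mean signal was 38.0 over the members and 28.6 over all compared genes.

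**Figure D4:**
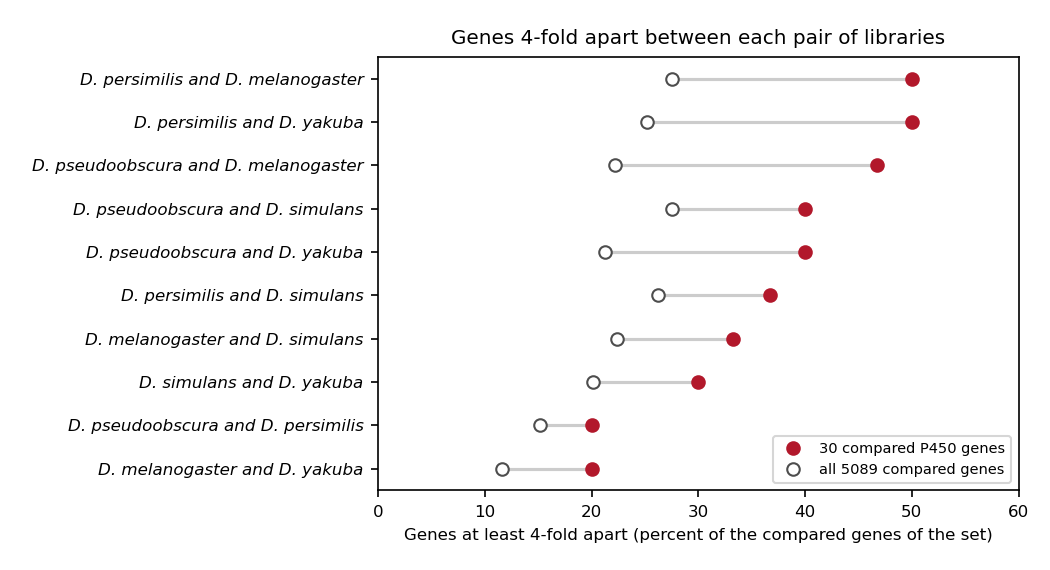
For each pair of libraries the filled point is the percent of the 30 compared P450 genes, and the open point the percent of all 5089 compared genes, that were at least 4-fold apart on the log2(signal + 1) scale. The filled point lies to the right of the open one in all 10 pairs, with 6 to 15 members apart and 11.6% to 27.5% of all genes.

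The libraries also differed with gene length. The difference of a library from D. melanogaster followed exon length across 5085 compared genes, with a Spearman correlation of -0.213 for D. pseudoobscura, -0.376 for D. persimilis, -0.325 for D. simulans and 0.0241 for D. yakuba. Genes are not independent replicates, and these correlations describe the libraries only. The part of length in the P450 differences was not tested. The compared members had a median exon length of 1820 bases, beside 1832 for all compared genes.

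Neighbouring members differed in their pattern across species. Cyp309a1 and Cyp309a2 lie on the same strand of 2L with 55 bases between them, and both were highest in D. simulans (131 and 23.8). In D. pseudoobscura Cyp309a1 was at 34.4 and Cyp309a2 was listed at 0. Their differences between the species groups were 1.55 and -1.40 on the log2 scale. Cyp4d2 and Cyp4ae1 lie 278 bases apart on the same strand of X, and Cyp4d2 was even while Cyp4ae1 was at 0.240 and 4.07 in the obscura group, against 7.57 to 13.6 in the others. Cyp316a1, at 0 in all libraries, lies 72 bases from Cyp4d8, which was at 15.01 and 27.2 in the obscura group, against 73.6, 33.7 and 47.7 in D. melanogaster, D. simulans and D. yakuba. Cyp4d14 lies 690 bases from Cyp4d2 on the other side. Cyp6a22 and Cyp6a19 lie in 1 cluster on 2R with 4080 bases between them, and Cyp6a22 was lower and Cyp6a19 higher in the obscura group. The genes between and beside them in D. melanogaster, Cyp6a17 (5222 reads), Cyp6a23 (1068), Cyp6a9 (1541), Cyp6a20 (2165) and Cyp6a8 (5722), were outside the cross-species table.

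The 40 members are less than the whole family of D. melanogaster. The annotation lists 85 P450 genes under a Cyp symbol, pseudogenes included and the cyclophilins Cyp1 and Cyp40 left out, of which 84 had an entry in the D. melanogaster counts. The 40 members held 76622 of their 276934 reads, or 27.7%, and the 44 genes outside the table held 200312. Cyp6g1, the gene known for resistance to DDT, alone had 113891 reads (95% exact Poisson interval 113231 to 114554), or 41.1% of the P450 reads and 0.509% of the library. Cyp313a1 followed with 19202 reads, and the members Cyp6w1 (18093), Cyp6d5 (12617) and Cyp9f2 (10588) came next. Cyp4d21 (9651 reads), known for sex-biased expression in the head fat body, and Cyp6a20 (2165), known for its effect on male aggression, were also outside the table. Cyp6g1 and Cyp6g2 (3997 reads) adjoin Cyp6t3 on 2R.

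The members and the other genes, these leading genes included, were also counted by read number. At least 100 reads were counted on 26 of the 40 members and on 27 of the 44 other genes, and at least 1000 on 16 and on 17. The median was 514 reads for the members and 421.5 for the others, and 5 members and 2 others had no read. These are reads per gene, not corrected for length. Of the 12 genes listed for insecticide and xenobiotic response 2 were members, Cyp6w1 and Cyp28a5. Cyp4g15, known from the nervous system and a relative of the oenocyte hydrocarbon enzyme Cyp4g1 (1792 reads, outside the table), had 7716 reads, and signals of 48.1 and 21.7 in the obscura group, against 195 in D. melanogaster, 25.2 in D. simulans and 183 in D. yakuba.

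**Figure D5:**
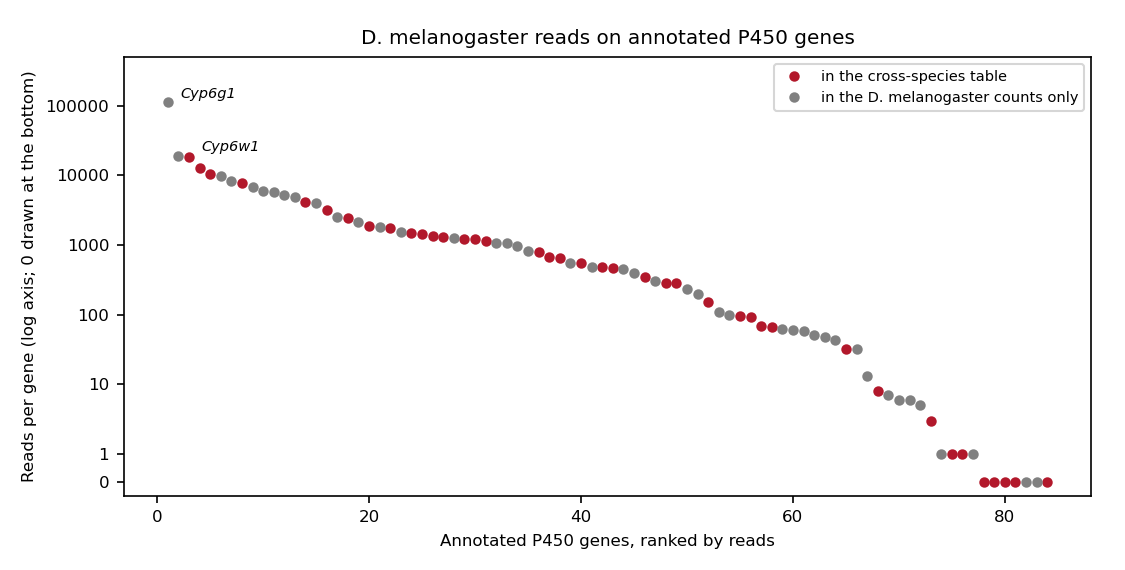
The 84 annotated P450 genes with an entry in the D. melanogaster counts are ranked by reads on a log axis, with 0 drawn at the bottom, red for the 40 genes in the cross-species table and grey for the 44 outside it. Cyp6g1, outside the table, stands at 113891 reads, above Cyp6w1 at 18093.

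Of 7 genes listed for electron transfer to P450s 6 were in the table, and none met the species group rule in either direction. Their median difference was 0.14 on the log2 scale. P450 reductase, Cpr, was at 204 in D. pseudoobscura, 93.4 in D. persimilis, 193 in D. melanogaster, 79.8 in D. simulans and 93.2 in D. yakuba, a ratio of highest to lowest of 2.55. Cytochrome b5, Cyt-b5, had 998 and 962 in the obscura group, against 2673, 1877 and 899.6 in D. melanogaster, D. simulans and D. yakuba. Of the mitochondrial ferredoxin genes, Fdx1 was between 14.3 and 68.1 and Fdx2 between 116 and 227. The list also holds CG4743, at 2.57 and 31.7 in the obscura group, against 7.68, 11.6 and 10.8 in the melanogaster group, for which RefSeq records the synonym Samc and whose place in electron transfer is unsure. Of 5 xenobiotic regulators in the table, of 8 listed, 1, cnc, was lower in the obscura group, where 5.86% of all compared genes were, and the others met neither rule. The cnc gene encodes the transcription factor CncC, which induces detoxification genes, and was at 2.63 and 4.16 in the obscura group, against 35.9, 13.7 and 29.0 in D. melanogaster, D. simulans and D. yakuba. Keap1, which encodes the inhibitor of CncC, was at 12.1 and 5.39, against 8.32, 8.02 and 14.2.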

How the data were processed

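The authors deposited raw read counts per gene on the annotation of each species, release 2.30 for D. pseudoobscura, 1.3 for D. persimilis, 5.46 for D. melanogaster, 1.4 for D. simulans and 1.3 for D. yakuba per the labels. The submitters' processing notes name TopHat2 2.0.3 and HTSeq. The sources used here do not give strand, multiple-mapping settings or how genes were matched between species.

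The authors' deposited cross-species table holds a signal for 8180 genes, with an upper quartile of 34.3366 in each library. For 21 of 31 members with over 20 D. melanogaster reads, value times exon length over reads lay within 5% of their median. Cyp6w1 was outside this range, at 88.1, where Cyp9f2 was at 59.97. The values were multiplied by 1.09093 and taken as log2(value + 1), and this pseudocount understates differences at low signal. The comparison took in genes of mean signal 5 or more. Some members reached this only through the group or library where they were high, among them Cyp6a19, Cyp12b2, Cyp6a22 and Cyp301a1. The named members were the 10 of highest mean, those past a rule, the 5 most even, those at 0 in some or all libraries and those of role lists. Members and lists were chosen with earlier results of these data known. Symbols were matched through current names and RefSeq synonyms, and all 40 members matched BDGP6, a later assembly than the authors' release, which supplied coordinates, exon lengths and overlaps. Poisson intervals are 95% exact, also for a count of 0, and cover counting error only. Both rules were run on simulated data with planted differences, as a check of the code only. With 1 library per species no test was run. Python 3.11.15, numpy 2.4.6, pandas 2.3.3, scipy 1.17.1 and matplotlib 3.10.9 were used.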

Additional observations from a re-analysis of the deposited data

How the results depend on the processing

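The counts of P450 genes were recomputed under 80 combinations of result and alternative. Of these, 67 stayed within 1.5 times of the reported count or, for the median difference, within its 95% binomial interval over members. No median changed sign. That interval treats members as independent, although members of 1 cluster share ancestry, and medians from 0 to 1.05 all lay within it. With a pseudocount of 5 there was 1 lower member, where 3.95% of all compared genes were lower, and 4 members stood apart in 1 library, where 6.15% did. With a minimum mean of 20 there were also 4 that stood apart, of 21 compared, where 13.2% of all compared genes did. At a threshold of 20 the expressed members of the 40 were 16 in D. pseudoobscura, 18 in D. persimilis, 19 in D. melanogaster, 17 in D. simulans and 13 in D. yakuba. Of all genes 35.6%, 34.1%, 36.5%, 34.4% and 36.5% were expressed in the same order. In D. yakuba the share of members was then below that of all genes. Leaving out 1 library, which loosens the rules, gave 4 to 6 higher and 2 to 5 lower members, 9 to 12 set apart, 63 to 68 differences of 4-fold (over fewer pairs by construction) and a median difference of 0.24 to 0.78. Of all compared genes 16% to 20.8% were then set apart, and 20.7% to 23.4% of all comparisons were 4-fold apart. The median was 0 over all 40 rows with no filter. It was 1.05 with a minimum mean of 20 and 0.89 over members above 0 in all libraries. Over all compared genes it was -0.03, 0.05 and -0.06 in these settings in turn. Equal library totals moved the median of all compared genes from -0.06 to -0.33 and that of the members to 0.09, with 3 higher and 2 lower. Of all compared genes 3.02% were then higher and 6.74% lower. No paired analysis was possible because each species has 1 library and the replicate numbers only name samples. Depth is unknown per gene outside D. melanogaster.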

Other observations

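Of 18 compared glutathione transferase genes, matched by current symbol, 1 was higher in the obscura group, GstD8, and 3 were lower, GstD1, GstE12 and GstT1, where 4.68% and 5.86% of all compared genes met these rules. GstE12 was at 516 in D. pseudoobscura and 468 in D. persimilis, against 1379, 1369.9 and 2542 in D. melanogaster, D. simulans and D. yakuba. GstT1 was at 14.8 and 12.8, against 33.6, 164 and 43.4. The median difference over the 18 was 0.19 on the log2 scale.

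The table held 11 UDP-glycosyltransferase genes, 5 of them compared, and none met either rule. Ugt35B1 led with 971 in D. pseudoobscura and 732 in D. persimilis, against 1604 in D. melanogaster, 227 in D. simulans and 382 in D. yakuba. Among esterases and juvenile hormone hydrolases 9 of 15 listed genes had a row and 7 were compared, of which 1, alpha-Est2, was higher in the obscura group, where 4.68% of all compared genes were, at 59.8 and 82.5, against 26.7, 14.8 and 12.7.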
